A study of Mus musculus with 12 samples.

Results

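Cd207 encodes langerin, and its mRNA was followed here across all 12 libraries of a study of mouse epidermal cells; it is 1 of the 23420 genes in the deposited expression table and was chosen by its symbol. Langerin is a C-type lectin on the surface of Langerhans cells, the dendritic-like sentinels that live among keratinocytes and present antigen to T cells. It binds mannose-rich glycans, takes them into the cell, and forms Birbeck granules, the rod-shaped organelles by which Langerhans cells are recognised in the electron microscope. The gene is used in mice as the marker of Langerhans cells, although a subset of dermal dendritic cells carries langerin as well. Langerhans cells depend on transforming growth factor-β (TGF-β) and on Runx transcription factors, whose DNA binding is strengthened by their partner Cbfβ. Cbfβ2 is a splice form of that partner.

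Cells had been sorted from epidermis as CD45+CD3-CD11b+MHCII+, a gate that takes Langerhans cells but does not use langerin. The 4 groups were wild type at postnatal day 5 (P5 wt), Cbfβ2 knockout at the same age (P5 KO), wild type at 1.5 months (1.5M wt) and Cbfβ2 knockout at 1.5 months (1.5M KO). Each group had 3 libraries of 100 cells, which the labels describe as separate library preparations without naming animals, so the p-values below measure the spread between preparations, which may be technical. Strain, sex, and whether the deletion was in every tissue are not stated in the labels.

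Values are scaled molecule counts: each mRNA molecule carried a barcode at its 3′ end, and every library was scaled by the authors to the same total. The 1.5M KO libraries were the deepest, with 74620 to 77419 molecules, and the other 9 held 30913 to 52208. The sorted phenotype was visible in the RNA, since Ptprc (CD45), Itgam (CD11b) and the class II gene H2-Aa were counted in all 12 libraries. The T cell genes Cd3e and Cd3g had no molecule in any library and Cd3d had 1, in P5 KO. Cbfb read between 3.91 and 4.97 in newborn wild type, between 1.45 and 3.63 in newborn knockout, between 7.15 and 13.8 in adult wild type and between 0.99 and 2.40 in adult knockout. These counts do not separate the Cbfβ2 form from other forms of Cbfb, so they do not check the deletion itself.

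In the GRCm38 assembly (mm10), Cd207 lies on the minus strand of chromosome 6, from 83671215 to 83677857 in the GENCODE annotation. The annotation gives 1 transcript of 6 exons and 1522 bases, of which 993 are coding bases without the stop codon. The 250 bases before its start, chr6:83677858-83678107 on the minus strand, are shown because the study removes a partner of DNA-binding factors. The sequence is from RefSeq (GRCm38.p6), 5′ to 3′, with the letters of the AP-1 motif in capitals.
Cd207 promoter: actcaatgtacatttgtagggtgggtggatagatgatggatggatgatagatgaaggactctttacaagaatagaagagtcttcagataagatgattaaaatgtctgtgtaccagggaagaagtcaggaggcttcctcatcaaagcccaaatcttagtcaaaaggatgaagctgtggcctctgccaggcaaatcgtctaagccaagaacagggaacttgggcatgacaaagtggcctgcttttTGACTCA

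The AP-1 letters TGANTCA, read on both strands, matched at positions -7 to -1 from the start. The same letters were found in 6.75% of 32851 RefSeq mouse promoters of that length. The PU.1 core GAGGAA matched at -118 to -113 on the strand opposite to the printed sequence, which reads TTCCTC there. These letters, read on both strands, were held by 23.3% of the promoters. The Runx core TGTGGT, present in 14% of promoters, and its variant TGCGGT, in 5.10%, had no match in these 250 bases. The cAMP response element TGACGTCA, the Smad palindrome GTCTAGAC the TATA letters TATAAA and a form of the NF-κB motif were also without a match. A match is a description of the letters, and the absence of one from this window tells nothing about binding elsewhere. The motifs were chosen with the expression results known.

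Cd207 mRNA was abundant in adult wild-type cells, 10.2-fold lower in adult knockout cells, nearly absent in newborn wild-type cells and not detected in newborn knockout cells. The 3 P5 wt libraries had 0.71, 1.08 and 2.93 scaled counts, which stand for 1, 1 and 3 molecules. The 3 P5 KO libraries had 0 molecules each. In 1.5M wt the values were 189, 201 and 252, from 205, 281 and 284 molecules. In 1.5M KO they were 18.7, 19.4 and 24.9, from 39, 39 and 52 molecules. No value of one group reached into the range of another, and within each adult group the highest library was less than 1.5 times the lowest.

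**Figure D1:**
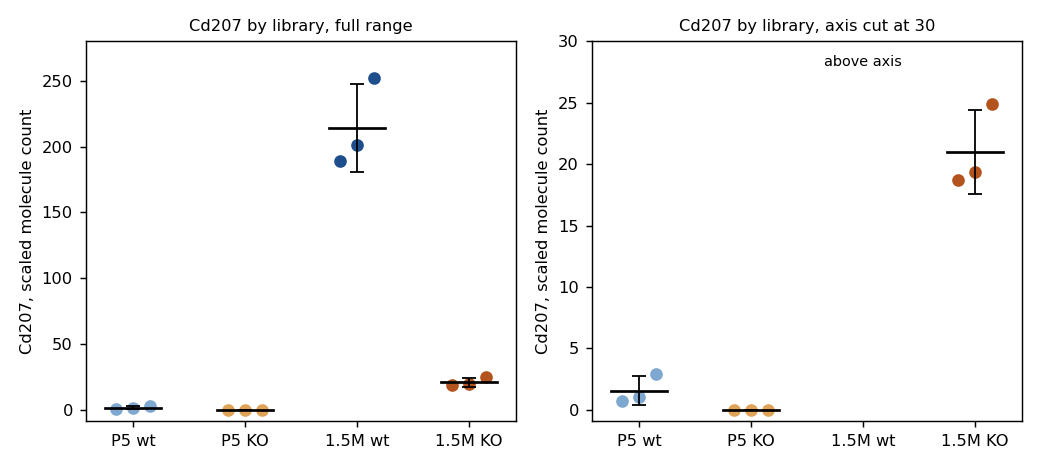
Cd207 in each of the 12 libraries, in scaled molecule counts; points are libraries, horizontal lines the mean of a group and bars its SD (n = 3). The left panel shows the full range, with 1.5M wt at 189 to 252; the right panel stops at 30, where the 1.5M KO libraries stand at 18.7 to 24.9, the P5 wt libraries at 0.71 to 2.93 and the P5 KO libraries at 0.

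The adult wild-type mean was 214 ± 33.7, the adult knockout mean 21.0 ± 3.41, the newborn wild-type mean 1.58 ± 1.19 and the newborn knockout mean 0 (SD, n = 3 each). Summed over a group, Cd207 gave 770 of 133851 molecules in 1.5M wt, or 0.575% (exact 95% Poisson interval 0.535% to 0.617%). The adult knockout gave 130 of 229389, or 0.0567% (0.0473% to 0.0673%). In P5 wt it gave 5 of 124374, or 0.00402% (0.00131% to 0.00938%). The absence from P5 KO, 0 of 122753 molecules, allows a share of up to 0.00301% by the same exact interval. The limit of 3 molecules used further on corresponds to 0.00244%. The intervals of P5 wt and P5 KO in molecules, 1.62 to 11.7 and 0 to 3.69, overlap, so the lowest step in the order is not resolved by counting alone. Intervals and limits cover counting error only. Per sorted cell, these sums come to 2.57 counted molecules for adult wild type, 0.433 for adult knockout and 0.0167 for newborn wild type, not corrected for the greater depth of the adult knockout libraries. Libraries of pooled cells cannot tell fewer cells with Cd207 from less Cd207 RNA in each cell.

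Among genes of the same group, Cd207 moved from the middle of the list to its head. Counts of 3′ molecules are compared here between genes as molecules, with no division by length. In 1.5M wt, Cd207 ranked 9 of 8894 genes with at least 1 molecule, behind Cd74 and the class II genes H2-Aa, H2-Eb1 and H2-Ab1, among others. In 1.5M KO it ranked 281 of 10220, and in P5 wt 4230 of 10186, level with many other genes of a few molecules. Of the 37 genes that averaged at least 100 scaled counts in 1.5M wt, Cd207 had the smallest P5 wt level as a share of its adult wild-type level, 0.736%. By the share left in 1.5M KO, 9.81%, it was the third lowest of these 37, above Tbc1d4 at 3.94% and Il1r2 at 7.53%.

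The change with age in wild type asks how Cd207 differs between newborn and adult sorted cells. Cd207 rose 136-fold by group means, from 1.58 to 214. The ratio of the shares of all molecules was 143 (exact 95% interval 61.1 to 442). In limma, on log2(scaled count + 1), the difference was 6.47 (SE 0.32, adjusted p = 7.12e-12). This was the largest rise and the smallest p of the 10023 genes tested, of which 5.21% were called in either direction and 2.36% as higher. All 3 adult libraries lay above all 3 newborn libraries. The exact permutation test of the single gene gave p = 0.1, the smallest that 3 against 3 libraries allow, in this and each of the other comparisons of 2 groups. The call held in all 21 alternative settings, and Cd207 had the largest rise in each of them except with a pseudocount of 0.1, where it came second.

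The same comparison in the knockout showed a rise from 0 in every P5 KO library to 21.0 ± 3.41 at 1.5M. Against the limit of 3 molecules in the 3 P5 KO libraries together, 0.907 scaled counts, Cd207 was at least 23.2-fold higher at 1.5M. The limma difference was 4.45 (SE 0.32, adjusted p = 1.58e-08), again with the smallest p of all genes tested, among which 3.14% were called. Its size depends on the pseudocount, because one group is at 0. The call was kept in all 21 alternatives. Cd207 mRNA was thus higher with age in both genotypes, and the adult knockout level stood between the newborn and adult wild-type levels.

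Adult knockout cells were also set directly against newborn wild-type cells. The 1.5M KO mean of 21.0 was 13.3 times the P5 wt mean of 1.58, and the ratio of the shares of all molecules was 14.1 (exact 95% interval 5.89 to 44.1). Limma gave 3.18 (SE 0.32, adjusted p = 2.54e-06; 3.26% of genes called), and the call held in all 21 alternatives. Epcam, an epithelial adhesion molecule of Langerhans cells, went the other way, from 17.0 ± 2.68 in P5 wt to 4.04 ± 1.2 in 1.5M KO (limma difference -1.86, adjusted p = 0.00314, but 0.0715 with no filter on low values). Ltc4s, leukotriene C4 synthase, went from 10.5 ± 1.08 to 1.46 ± 0.52 (limma difference -2.24, adjusted p = 0.00152, but 0.0669 with a pseudocount of 0.1). Of the 17 tested genes in a list of 18 Langerhans cell markers, 3 were higher in 1.5M KO than in P5 wt (2.17% of all genes), namely Cd207, Cx3cr1 and Itgax, and 6 were lower (1.10% of all genes).

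Knockout against wild type at 1.5 months is the comparison in which Cd207 was well counted on both sides. The adult knockout mean was 9.81% ± 1.59 (SD, n = 3) of the adult wild-type mean. The fall was 10.2-fold by means, and 10.2-fold by the share of all molecules in the group (exact 95% interval 8.42 to 12.3). Limma gave a difference of -3.29 (SE 0.32, adjusted p = 1.75e-07), the 18th largest fall (2nd to 127th over the 21 alternatives), where 5.28% of genes were called in either direction and 2.04% as lower. The highest 1.5M KO library, 24.9, was far under the lowest 1.5M wt library, 189. The call held in all 21 alternatives, with differences from -3.41 to -2.85.

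A residual level of that size was near the middle for the genes that fell. Among the 204 genes called lower in 1.5M KO, the median gene kept 11.8% of its adult wild-type level, with quartiles at 0.7% and 28.4%. In this set 90 genes kept a smaller share than Cd207, and 49 had no molecule in 1.5M KO. Cd207 itself was counted at 39 molecules or more in each adult knockout library.

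At P5, the knockout and wild-type libraries differed by 5 molecules against 0. Limma put the difference at -1.27 (SE 0.32, adjusted p = 0.0421; 1.80% of genes called), just inside the threshold. The call was lost in 17 of 21 alternatives, with adjusted p up to 0.659. Leaving out any 1 of the 11 libraries other than P5 wt library 1 ended it, with adjusted p from 0.0634 to 0.186. The highest of these came without P5 wt library 3, which holds 3 of the 5 molecules, and a fit of the 6 P5 libraries alone gave 0.39. A difference at P5 was accordingly not firmly detectable at this depth.

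The knockout difference at 1.5M minus that at P5 was -2.02 in limma (SE 0.45, adjusted p = 0.0141; 0.678% of genes were called as more negative). This compares differences on the log2(scaled count + 1) scale, where the low newborn level bounds how far Cd207 can fall. With a pseudocount of 0.1 the sign turned (0.49, adjusted p = 0.823), and the adjusted p was 0.0687 when adult wild-type library 3 was left out, 0.055 for adult knockout library 1 and 0.0614 for adult knockout library 2. The 6 comparisons share groups, so their values for Cd207 are not independent of each other. Whether the proportional loss of Cd207 differed between the ages could not be told from these counts.

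Other Langerhans cell markers did not follow 1 course, and Cd207 stood apart from most of them by its low newborn level. In the list of 18 markers at 1.5M, 9 of the 17 tested fell in the knockout (2.04% of all genes did). Another 2 rose, Cx3cr1 and Axl (3.24% of all genes), both without a molecule in 1.5M wt. The median difference of the 17 was -1.79, against 0.09 over all genes. The 9 were Cldn1, Ptgs1, Cd24a, Il1r2, Cd207, Epcam, Mfge8, Ltc4s and Cdh1. Epcam kept 9.89% of its adult wild-type level in 1.5M KO, Ltc4s 8.34%, Il1r2 7.53% and Mfge8 11.7%, all near the 9.81% of Cd207. Lower shares were left of Cldn1, a tight junction claudin, at 0.562%, of Ptgs1, the cyclooxygenase COX-1, at 0.478%, and of Cd24a, a surface glycoprotein, at 0.747%. These 3 percentages stand for 1 or 2 molecules per group. Cdh1, the gene of E-cadherin, kept 30.9%, with a range from 11.4% to 53.3% between libraries, and its call was lost with no filter on low values (adjusted p = 0.13), in a fit of the 6 adult libraries alone (0.122) and without 1.5M KO library 2 (0.0547). Cdh1 also had fractional molecule numbers in 4 libraries, as when molecules match more than 1 gene.

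The newborn wild-type level separates the same markers. P5 wt stood at 0.736% of 1.5M wt for Cd207, but at 76.4% for Cdh1, 59.8% for Ltc4s, 41.7% for Epcam, 29.8% for Ptgs1, 24.7% for Cd24a and 21.0% for Cldn1. Mfge8, a protein that bridges phagocytes to dying cells, was at 7.93%, and Il1r2, the decoy receptor for interleukin-1, at 4.19%. Csf1r, the receptor for CSF-1 and interleukin-34, was at 75% in P5 wt and at 119% in 1.5M KO. By the fit, 7 of the 17 tested markers were higher at 1.5M than at P5 in wild type (2.36% of all genes) and 2, Axl and Cx3cr1, lower (2.84%). At P5 the knockout had 6 lower (0.649% of all genes) and 2 higher (1.15%), while a limma fit of the 6 P5 libraries alone called 0 of all genes (836 at an unadjusted p under 0.05). Ly75, the gene of the lectin DEC-205, had 1 molecule in total, in 1.5M wt library 1, and was not tested.

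**Figure D2:**
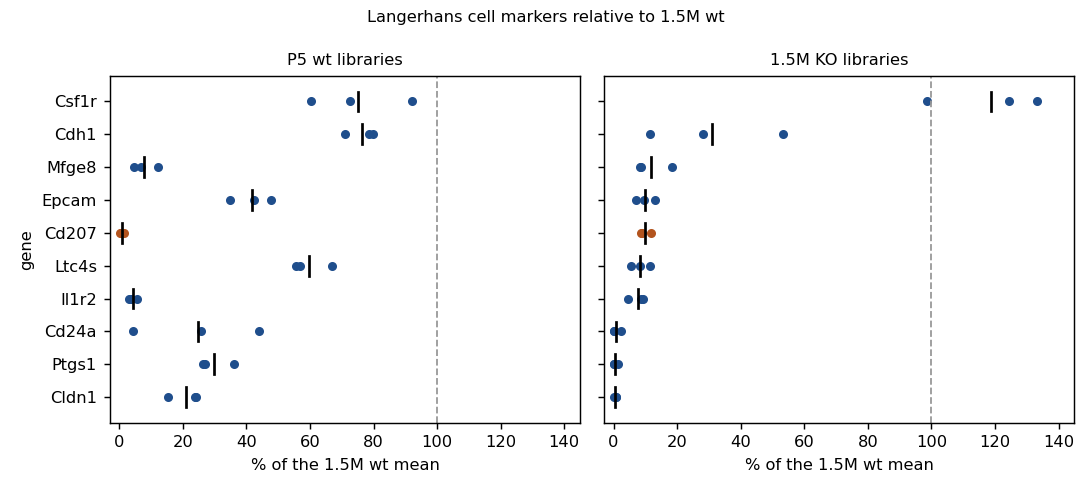
Level of 10 Langerhans cell markers in P5 wt (left) and 1.5M KO (right) libraries as a percentage of the gene's mean in 1.5M wt; points are libraries, black ticks their mean and the dashed line marks 100%. Cd207 (orange) stands near 0 on the left, where Epcam, Ltc4s and Cdh1 average 41.7%, 59.8% and 76.4%, and beside Epcam, Ltc4s and Il1r2 near 10% on the right.

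With age in the knockout, 5 markers including Cd207 rose (1.72% of all genes did) and 4 fell (1.43%). Ptgs1 went from 5.21 ± 0.74 in P5 KO to 0.16 ± 0.28 in 1.5M KO (limma difference -2.44, adjusted p = 6.51e-05), in a call kept in all 21 alternatives. Cldn1 had a difference of -1.53 (adjusted p = 0.0137), lost in 5 alternatives, among them without P5 KO library 3 (0.0736) or 1.5M KO library 2 (0.0906). Cd24a had a difference of -2.13 (adjusted p = 0.0206), lost in 8, among them without any single 1.5M KO library (0.0659 to 0.114) and without P5 KO library 1 (0.118) or 3 (0.0966). Mfge8 (2.38, adjusted p = 0.00046, lost at 0.0881 when the 6 knockout libraries were fitted alone) and Itgax, the gene of CD11c (2.60, adjusted p = 1.69e-05), rose as Cd207 did. The other rises, of Il1r2 and Csf1r, were lost in 8 and 12 alternatives, and the fall of Cd1d1, which encodes an antigen-presenting molecule for lipids, in 5. Limma called the knockout differences at the 2 ages apart for 8 of the 17 markers. Of these, 5 were more negative at 1.5M (0.678% of all genes) and 3 more positive (1.32%). Cd207 was among the 5, but its call was lost in 6 of 20 alternatives and its sign turned with a pseudocount of 0.1. The calls of Itgax and Axl, among the 3, were also lost in several alternatives.

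Cd207 was next set against single genes of the same library. The quantity is the log2(scaled count + 1) of Cd207 minus that of the other gene, and 11 genes were compared between 1.5M wt and 1.5M KO, partly chosen after their values were seen. Against Epcam, Cd207 stood at 2.10 to 2.51 in adult wild type and 1.65 to 2.74 in adult knockout, and the groups overlapped. They overlapped as well against Il1r2, Mfge8 and Ltc4s, with differences between group means from -0.43 to 0.36. Against Cldn1, Cd207 stood at 1.73 to 2.11 in adult wild type and 3.74 to 4.35 in adult knockout, without overlap. Ptgs1 (1.59) and Cd24a (1.04) gave changes in the same direction, bounded by the pseudocount since those genes were at or near 0 in 1.5M KO.

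The ratio of Cd207 to genes that most sorted myeloid cells share fell in the knockout. Against Ptprc, which encodes CD45, Cd207 stood at 3.59 to 3.72 in adult wild type and at -0.96 to -0.15 in adult knockout, so that the order of the 2 genes turned. The change was -3.54 against Csf1r, -2.66 against Cd74, the class II invariant chain, and -2.65 against H2-Aa. The other genes moved too. Ptprc averaged 16.2 ± 2.91 in adult wild type and 34.2 ± 5.71 in adult knockout. In adult knockout, Csf1r stood at 119% of its adult wild-type mean, Cd74 at 65.0% and H2-Aa at 64.2%. Those changes enter the 4 groups of ratios. These 4 groups of ratios, and those against Cldn1, Ptgs1 and Cd24a, did not overlap. Each had an exact permutation p of 0.1, the smallest possible, and 0.157 after Benjamini-Hochberg adjustment over the 11 ratios, so none could pass.

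**Figure D3:**
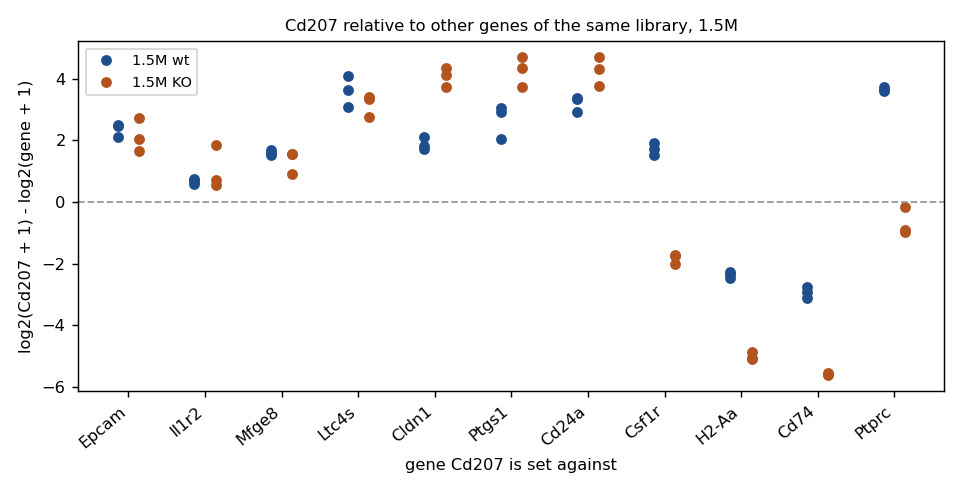
Difference between log2(scaled count + 1) of Cd207 and of 11 other genes within each adult library; blue points are 1.5M wt and orange points 1.5M KO libraries, and the dashed line marks equal levels. The colours mix for Epcam, Il1r2, Mfge8 and Ltc4s and are apart for the other 7 genes.

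The genes whose pattern over the 12 libraries was most like that of Cd207 were found by the root mean square difference of their values, each taken as a percentage of the gene's highest group mean. Among 828 genes with a highest group mean of at least 10, the 12 nearest were Il1r2 (3.68 percentage points), Mfge8 (5.07), Ndrg1 (5.94), Ninl (6.58), P2rx2 (7.43), Tnfaip2 (8.21), P2ry10 (8.78), Tbc1d4 (10.04), Crem (10.3), Grasp (10.4), Gcnt2 (10.5) and Sema7a (12.4). The median distance of all compared genes was 71.0 points, and the next gene after the 12 was at 12.6. They include a decoy receptor for interleukin-1 (Il1r2), an ATP-gated channel (P2rx2), a gene induced by tumour necrosis factor (Tnfaip2), a Rab GTPase-activating protein (Tbc1d4), a cAMP-responsive transcription factor (Crem) and a membrane-anchored semaphorin (Sema7a). Since all were picked for this pattern, their values are described without a test.

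All 12 shared the peak in adult wild type. Il1r2 read 124, 124 and 151 in adult wild type and 12.5, 11.4 and 6.23 in adult knockout, close to the shape of Cd207. It differed from Cd207 in newborn knockout, where all 3 libraries held it (2.40 to 5.82). In newborn wild type it read 4.26 to 7.59. Tnfaip2 averaged 108 in 1.5M wt and kept 16.5% of that in 1.5M KO and 2.15% in P5 wt. Tbc1d4 kept 3.94% in 1.5M KO and 6.22% in P5 wt, so that, unlike Cd207, its newborn wild-type mean was above its adult knockout mean. Ninl, a centrosomal protein, was counted in 1.5M wt only, at 11.4 to 14.2, and had no molecule in the other 9 libraries. On centred log2 values 9 of the 12 stayed among the nearest 12. RefSeq promoters were found for 9 of the 12, and of these P2ry10 alone matched TGANTCA, held by 6.75% of all promoters. The Runx core TGTGGT (14% of all promoters) was found for Mfge8 and P2ry10, and its variant TGCGGT (5.10%) for Tnfaip2 and Sema7a. The PU.1 core GAGGAA (23.3%) was found for Mfge8 and P2ry10. The Runx core, its variant and the PU.1 core were thus each found in 2 of the 9. The TATA letters TATAAA (12.4%) were found for Grasp alone. The shares are per promoter and the counts per gene, so they are not directly comparable. The AP-1 match of P2ry10 lay in a different promoter from its Runx and PU.1 matches.

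**Figure D4:**
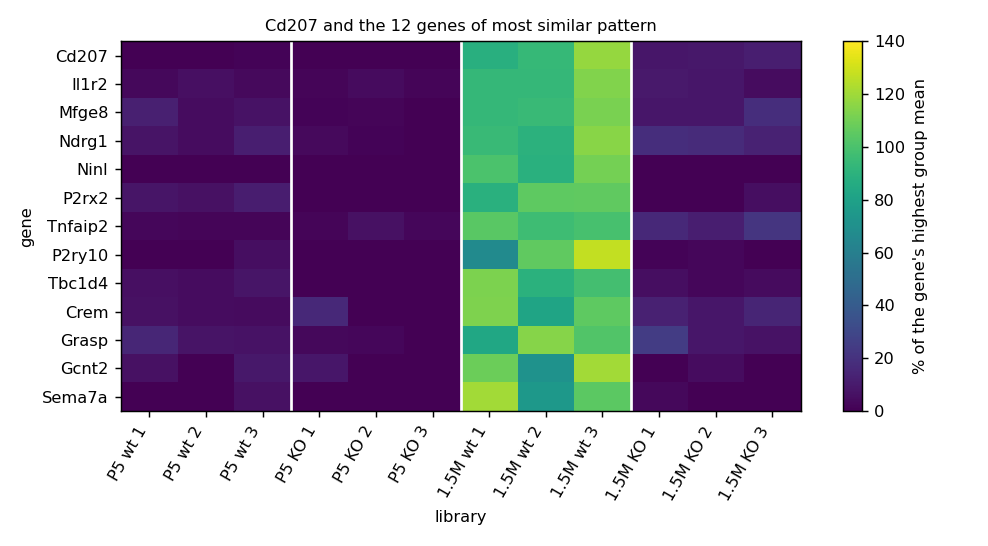
Level of Cd207 and the 12 genes of most similar pattern in each library (columns), as a percentage of the gene's highest group mean (colour scale, 0 to 140%). The 3 columns of 1.5M wt are bright in every row, and faint colour in 1.5M KO marks genes such as Cd207, Ndrg1 and Tnfaip2 that kept part of their level.

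The genes beside Cd207 on chromosome 6 were silent or counted at a few molecules. Clec4f, the lectin gene of Kupffer cells, lies 15090 bases away on one side, and Vax2os, a long noncoding RNA, 14946 bases away on the other. Both had 0 molecules in all 12 libraries, as did Vax2, a homeobox gene 33381 bases away, against 905 for Cd207. The RefSeq entries Gm7424, LOC115490483 and Gm32943 also lie nearby and have no row in the table. The nearest genes with more than 1 molecule were Tex261, 91023 bases away with 21, and Stambp, 95380 bases away with 22, each counted in all 4 groups.

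**Figure D5:**
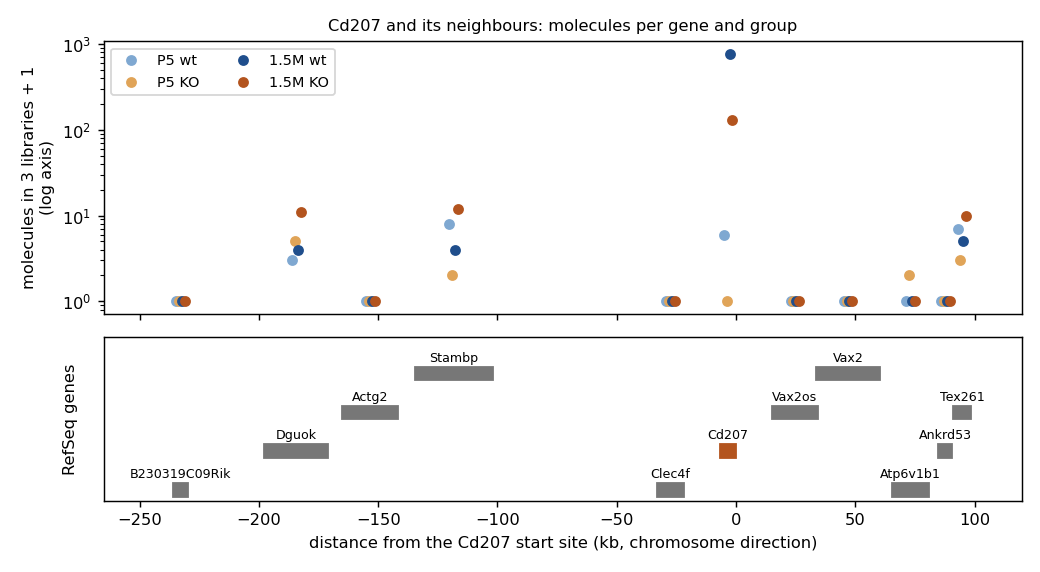
Molecules per gene, summed over the 3 libraries of a group plus 1 (log axis), for Cd207 and the neighbouring RefSeq genes found in the table, by distance in kilobases from the Cd207 start site; boxes below show gene extents. Cd207 reaches 770 molecules in 1.5M wt, while Clec4f, Vax2os and Vax2 stay at 0.

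Genes around Cd207 in the biology of Langerhans cells were read from lists. Of 18 regulators of Langerhans cell identity, all tested, 7 were higher in 1.5M KO (3.24% of all genes) and 1, Cbfb, was lower (2.04%). Among the higher ones, Cebpa went from 0.31 to 11.5 and Zeb2 from 0.24 to 8.69 scaled counts. The calls of Id2, Irf8 and Runx1 were lost in 4, 10 and 10 alternatives. Runx3, the Runx factor that Langerhans cells require, averaged 15.7 ± 5.04 in adult wild type and 24.7 ± 7.31 in adult knockout (limma adjusted p = 0.415). The list of TGF-β and BMP pathway genes had 18 of 25 members tested. Of these, 3 were higher in 1.5M KO (3.24% of all genes) and 0 lower (2.04%). Tgfbr1, a receptor kinase of that pathway, was lowest where Cd207 was highest, at 0.92, 1.43 and 2.67 in the adult wild-type libraries. It read 16.6 to 30.6 in newborn wild type, 8.0 to 12 in newborn knockout and 20.1 to 25.4 in adult knockout. The Tgfbr2 and Ski calls were lost in 7 alternatives each. The endocytosis and recycling genes are the machinery through which langerin cycles. Of 25 tested, 3 were higher in 1.5M KO (Rab11fip5, Lamp2 and Ehd4), against 3.24% of all genes, and 0 lower (2.04%). Those 3 calls were each lost in at least 4 alternatives.

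Markers of other cells moved in the same libraries as Cd207. The summed level of the macrophage and monocyte list was 8.29 to 10.7 in adult wild type and 600 to 687 in adult knockout, with 9 of its 14 tested members higher (3.24% of all genes) and 0 lower (2.04%). Tgfbi, which encodes a matrix protein, averaged 122 in adult knockout and had no molecule in adult wild type. The summed level of the whole list lay between in the newborn libraries, at 124 to 158 in wild type and 231 to 260 in knockout. The part of the cells with these markers in the lower Cd207 level was not tested. In P5 KO the keratinocyte list summed to 216 to 668, against 67.4 to 92.8 in P5 wt, the neutrophil list to 47.0 to 242 against 3.02 to 10.3, and the erythroid list to 2.39 to 524 against 0 to 4.26. The part of these sums in the P5 difference was not tested either.

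Dermal dendritic cells that carry langerin have Itgae (CD103), Xcr1 and Clec9a as defining genes. Itgae had 1 molecule in each adult group, and Clec9a had none at 1.5M. Xcr1, with fractional molecules, averaged 0.96 ± 1.42 in adult wild type and 0.80 ± 0.53 in adult knockout. The 10-gene list for these cells summed to 9.18 to 15.5 in adult wild type, where 5 members were at 0, and to 34.2 to 38.5 in adult knockout, where 2 were, with 3 of 7 tested members higher (Naaa, Wdfy4 and Irf8; 3.24% of all genes). The calls of Wdfy4 and Irf8 were lost in 11 and 10 alternatives. The part of these cells in the Cd207 level was not tested.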

How the data were processed

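RNA of 100 sorted cells per tube was primed with oligo-dT carrying a molecular barcode, with spike-in RNA added, per the labels' protocols. Alignment used TopHat2 against mm10, per the submitters' processing notes; the counting tool, annotation and scaling step are not stated. The deposited signal is, from its values, a molecule count that the authors scaled to one total in all libraries. The most frequent value above 0 in a library was taken as 1 molecule, although smaller values also occurred. Of values above 0, 92.6% to 94.9% were whole multiples of it (tolerance 0.01). This unit gave depths, counting intervals and the limit of 3 molecules per group. With under 95% whole values, no negative binomial test was run; voom on the approximate molecules was an alternative. The value of Cd207 was whole in all libraries.

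Genes above 0 in at least 3 of 12 libraries (10023) were fitted on log2(value + 1) with limma 3.58.1 in R 4.3.3, with 4 group means, a mean-variance trend, two-sided tests and Benjamini-Hochberg adjustment over all genes at 0.05. The fit was checked on simulated data. Single values were compared by exact permutation in scipy 1.17.1. The 21 alternatives were 2 other pseudocounts (0.1 and 10), 2 other filters, 2 scalings, a fit of the compared libraries alone, a replicate block, voom, and leaving out each library. Named genes were Cd207, the 12 nearest in pattern, neighbours, the largest falls at 1.5M, members of the Langerhans and sort marker lists, and up to 4 called members of each other list. Emr1 (Adgre1) and Sfpi1 (Spi1) were matched by older symbols. Cd207, the lists and the comparisons were chosen with earlier results of these data known.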

Additional observations from a re-analysis of the deposited data

Results flagged for a closer look

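The genes here had knockout differences that limma called apart between the 2 ages. The test was of the difference at 1.5M minus the difference at P5, on log2(scaled count + 1), with n = 3 libraries per group. For Cd207 the value was -2.02 (SE 0.45, adjusted p = 0.0141), and it changed sign with a pseudocount of 0.1. The genes chosen for a pattern like that of Cd207 were selected on these same values, so their differences are a description and support nothing. Il1r2 had -3.11, Ninl -3.79, P2rx2 -2.59, Tnfaip2 -2.90, P2ry10 -4.22, Gcnt2 -3.09 and Sema7a -3.49. The value of P2rx2 was not called in 7 of 20 alternatives, that of Gcnt2 in 2, and those of P2ry10 and Sema7a in 1 each.

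Among Langerhans cell markers, Cldn1 had -3.72, Ptgs1 -4.06 and Cd24a -4.28, against 2.56 for Cx3cr1, 1.92 for Itgax and 2.98 for Axl. The values of Cldn1 and Ptgs1 were called in all 20 alternatives, those of Itgax and Axl were lost in 10 and 9, and those of Cd24a and Cx3cr1 in 1 each. The sort marker H2-Eb1 had -0.78, lost in 11. Mmp9 (-5.09), Prnp (-4.82) and Nedd4 (-4.97) were named for the largest falls at 1.5M, which is 1 term of the difference, so their values too are a description only. The genes of other lists that follow were likewise named because they were called at 1.5M. Tgfbr1 had 4.43, called in all 20, with knockout differences of -1.22 at P5 and 3.21 at 1.5M. Its P5 difference (limma adjusted p = 0.0487) was lost in several alternatives, among them the limma fit of the P5 libraries alone (0.259). The regulators Cebpa and Id2 had 2.69 and 2.60, lost in 1 and 12, and the recycling gene Ehd4 had 2.28, lost in 11. Of genes listed for other cells, Mgl2 had 2.57, Tmem176a 3.00, Tmem176b 2.85, Tgfbi 6.10, C1qc 6.60, C1qb 6.20 and Cybb 4.96; the values of Tmem176a and Mgl2 were lost in 8 and 1.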

How the results depend on the processing

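For Cd207, 4 of the 6 comparisons kept their direction and call in all 21 alternatives: knockout against wild type at 1.5M (differences -3.41 to -2.85), age in wild type (4.27 to 7.22), age in knockout (1.63 to 7.71) and 1.5M KO against P5 wt (1.42 to 3.87).

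The P5 call (-1.27, adjusted p = 0.0421) was lost with a pseudocount of 10 (-0.21, adjusted p = 0.659), with no filter on low values (-1.27, 0.151), with median-of-ratios scaling (-1.20, 0.0534), with quantile normalization (-1.11, 0.108), in a limma fit of the 6 libraries alone (-1.27, 0.39) and with voom (-1.89, 0.262). It was kept with a pseudocount of 0.1, with genes above 0 in at least 6 libraries and with the replicate block. Leaving out 1 library gave -1.52 to -0.92, called only without P5 wt library 1.

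The difference between the ages (-2.02) turned to 0.49 (adjusted p = 0.823) with a pseudocount of 0.1. It was not called with no filter (-2.02, 0.0765) or with voom (-1.44, 0.378), and leaving out 1 library gave -2.37 to -1.77, with 3 of 12 not called. The cause of these losses was not tested. A fit of the compared libraries alone has no such row, since all 4 groups enter.

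Numbers of genes called moved by more than 1.5 times with no filter (180 to 21 at P5, 529 to 310 at 1.5M, 522 to 240 for age in wild type, 315 to 150 for age in knockout, 200 to 107 for the difference, 327 to 141 for 1.5M KO against P5 wt). In fits of the compared libraries alone limma called 0 at P5 (836 at an unadjusted p under 0.05), 111, 86 and 81 for the last 3 pairs of groups. With voom there were 839 at 1.5M, 822 for age in knockout, 331 for the difference and 770 for the last pair. A pseudocount of 0.1 gave 92 at P5 and 133 for the difference. Leaving out 1 library gave 74 to 154 at P5, 336 to 548 at 1.5M, 143 to 339 for age in knockout, 115 to 198 for the difference and 151 to 352 for the last pair. Counts fell by more than 1.5 times at P5 on omission of newborn wild-type library 2 or 3, newborn knockout library 1, adult wild-type library 2 or any adult knockout library; at 1.5M without 1.5M KO library 2; for age in knockout without any 1.5M KO library; for the difference without 1.5M KO library 2 or 3; and for the last pair without P5 wt library 2 or 3 or any 1.5M KO library. With median-of-ratios scaling the share of calls that were higher went from 45.4% to 61.0% for age in wild type and from 66.4% to 78.4% for 1.5M KO against P5 wt, and the median of all genes for age in wild type went from -0.22 to -0.11.

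The 18 pairs of libraries with equal replicate numbers had correlations of deviations from -0.017 to 0.023, and other pairs from -0.02 to 0.023. Of 12 libraries, 6 correlated best with a library of their own number. All correlations were near 0, so they do not settle whether equal numbers are paired. With the replicate block Cd207 gave -1.27 at P5 (adjusted p = 0.036) and -2.02 for the difference between the ages (0.0108), and 147, 508, 504, 315, 195 and 306 genes were called. Of the 12 genes most like Cd207, 9 were shared on centred log2 values, 11 with a minimum level of 5 and 10 to 12 when 1 library was left out. Depth limits the P5 values of Cd207, which rest on 5 molecules.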
